A study of Danio rerio with 13 samples.

Results

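The subject is 8 zebrafish genes of leukocyte signalling and effector function: ptprc, lyn, pik3r6a, fut7, lcp1, wdfy4, laptm5 and rbm47. They were found by gene symbol among 24438 gene IDs, and they carry 13 of the 42037 promoter windows in the data. Each window is 4 kb wide. The genes were selected on the log2 fold change and adjusted p of H3K4me3 at their promoters, which was higher after heart injury, so their H3K4me3 values are given below as a description only, with no test. The question asked of them was whether the windows that gained H3K4me3 also had lower H3K27me3.

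The 2 marks were profiled by chromatin immunoprecipitation and sequencing (ChIP-seq) in TuAB zebrafish aged 1 to 1.5 years. Hearts from fish whose ventricular apex had been cut away 5 days earlier were set against uninjured hearts, with 3 libraries per condition and mark. Cells from the apex end of the ventricle were kept on a nylon mesh of 10 micrometres, which retains the large muscle cells and lets smaller cells through, and the labels call the result enriched cardiomyocytes. A mixed input DNA sample brings the series to 13 samples and is not used here. The data are 1 value per window for the comparison of resected with uninjured hearts, so levels in single libraries were not analysed here.

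H3K4me3, trimethylation of lysine 4 of histone H3, marks promoters that are active or ready for transcription. H3K27me3, trimethylation of lysine 27, is written by the Polycomb complex PRC2 and marks promoters held silent, among them the promoters of genes that belong to other cell lineages. In regenerating zebrafish hearts, neutrophils and macrophages enter the wound in the first days and lymphocytes are present later. Leukocytes sense their surroundings through receptors linked to Src-family kinases and phosphoinositide 3-kinase (PI3K), attach to vessel walls through selectins and integrins, crawl by remodelling actin, and degrade or present what they take up. Apart from rbm47, an RNA-binding protein gene, the 8 have roles along that path.

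After resection all 8 genes had an H3K4me3 log2 fold change above 0 at their window of highest H3K4me3, and at that same window all 8 had an H3K27me3 log2 fold change below 0. The H3K27me3 log2 fold changes ranged from -1.31 at wdfy4 to -0.23 at laptm5, with a median of -0.83, beside -0.0018 over all genes. Of all 24075 genes with an H3K27me3 value, 50.2% were below 0. None of the 8 passed the adjusted p of 0.05 for H3K27me3, and neither did any gene of the table (0%). At an unadjusted p under 0.05, 5 of the 8 were lower (wdfy4, fut7, lcp1, rbm47 and pik3r6a), where 2.04% of all genes were. Of 226 other genes with higher H3K4me3 at an adjusted p under 0.05, 10 (4.42%) were lower in this way. Because the genes were chosen with results of these data known, no test was made over the 8 as a set.

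In the authors' deposited table the 8 windows had H3K4me3 log2 fold changes, resected over uninjured, of 0.82 to 1.43, with standard errors (SE) of 0.24 to 0.28. These values bear the signs of shrinkage towards 0, and sizes are therefore not compared between the marks. The adjusted p was under 0.05 at 7 of the 8 windows, beside 1.52% of the 15351 genes with an adjusted p, and nothing is read from that share because these values chose the genes. The 2 genes nearest to that threshold were fut7 inside it, with an adjusted p of 0.0236 in the authors' deposited table, and ptprc outside it, with 0.0665. All 8 windows, of the 13, had enough reads to be given an adjusted p by the authors.

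The 8 windows had mean counts around the middle of the range of all genes for H3K4me3, and were spread more widely for H3K27me3. The authors' mean normalised count over the 6 libraries of a mark ran for H3K4me3 from 77.2 at fut7 to 163 at wdfy4, which is percentile 46.4 to 61.0 of all genes. For H3K27me3 the mean count ran from 42.4 at ptprc to 73.7 at lcp1, percentile 23.2 to 76.5. The median of the 8 was 59.4, beside a median of 56.7 over all genes, in the 2 conditions averaged together, and no background level was set beside these counts. With counts of this size the SE of the H3K27me3 log2 fold change was 0.39 to 0.52. At the median SE, the half-width of a 95% interval is 0.86 (log2).

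**Figure D1:**
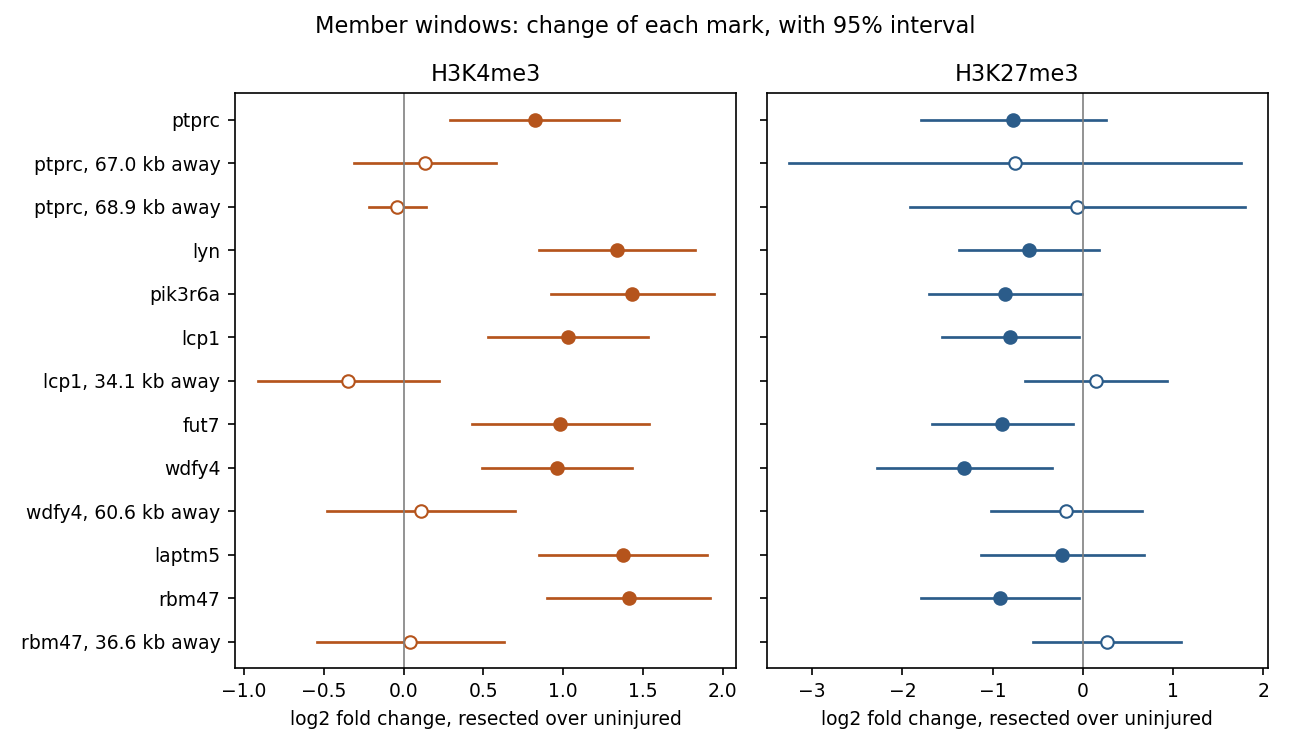
Change of H3K4me3 (left) and H3K27me3 (right) at all 13 windows of the 8 genes, as log2 fold change of resected over uninjured hearts on the horizontal axes, with bars for the 95% interval (normal, from the SE). Filled points are each gene's window of highest H3K4me3 and open points its other windows, named by their distance from it. The filled points lie right of 0 on the left and left of 0 on the right, and 5 of the 8 intervals of H3K27me3 end below 0.

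Among the signalling genes, ptprc encodes CD45, the receptor-type tyrosine phosphatase found on nearly all leukocytes, which activates Src-family kinases by removing an inhibitory phosphate. Its window at chr22:23051080-23055079 (counted from 1, in the unnamed build of the authors' table) had the smallest H3K4me3 log2 fold change of the 8 in the authors' deposited table, 0.82 (SE 0.27). H3K27me3 there was -0.77 (SE 0.52, unadjusted p = 0.141 in the authors' deposited table), with a 95% interval from -1.80 to 0.26. The gene lyn encodes a Src-family kinase, which in zebrafish neutrophils takes part in sensing wounds. Its only window, chr2:27951556-27955555, had 1.34 for H3K4me3 (SE 0.25) in the authors' deposited table. H3K27me3 at lyn was -0.59 (SE 0.40, unadjusted p = 0.135 in the authors' deposited table). Both intervals of H3K27me3, at ptprc and at lyn, include 0.

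The third signalling gene, pik3r6a, encodes a regulatory subunit of PI3K gamma, the form of the enzyme that acts downstream of chemokine and other G protein-coupled receptors. Its window at chr6:23609857-23613856 had the largest H3K4me3 gain of the 8, a log2 fold change of 1.43 (SE 0.26) in the authors' deposited table, or 2.70-fold. H3K27me3 at that window was -0.86 (SE 0.43, unadjusted p = 0.0472 in the authors' deposited table), which is 0.551-fold with a 95% interval from 0.306 to 0.993.

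The gene fut7 encodes the fucosyltransferase that completes sialyl Lewis x, the sugar by which leukocytes bind selectins on vessel walls. At chr21:13578162-13582161 H3K4me3 was 0.98 (SE 0.28) and H3K27me3 was -0.89 (SE 0.40) in the authors' deposited table. The unadjusted p for H3K27me3 was 0.0252 in the authors' deposited table. The gene lcp1 encodes L-plastin, which bundles actin filaments in leukocytes. Its window at chr9:56703091-56707090 had 1.03 (SE 0.26) for H3K4me3 and -0.80 (SE 0.39, unadjusted p = 0.0392) for H3K27me3 in the authors' deposited table. These 2 windows had the highest mean H3K27me3 of the 8, 68.9 at fut7 and 73.7 at lcp1.

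The gene wdfy4 encodes a BEACH-domain protein that mouse dendritic cells need to present antigen from engulfed cells. Its window at chr13:30936418-30940417 had the lowest H3K27me3 value of the 8 and, after ptprc, the smallest H3K4me3 log2 fold change. H3K27me3 was -1.31 (SE 0.50, unadjusted p = 0.00802 in the authors' deposited table), or 0.403-fold with a 95% interval from 0.205 to 0.789. H3K4me3 there was 0.96 (SE 0.24) in the authors' deposited table. That window shares 2610 bases with a window of si:ch211-223a10.1, a gene on the opposite strand, so its signal cannot be assigned to wdfy4 alone. The neighbour's own window had 0.90 for H3K4me3 and -0.79 for H3K27me3 in the authors' deposited table. The windows of the other 7 genes overlap no window of another gene.

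The gene laptm5 encodes a lysosomal membrane protein of blood cells that in mouse lowers antigen receptors on the lymphocyte surface. It was the exception in size: its H3K4me3 gain was the third largest, 1.38 (SE 0.27), and its H3K27me3 change the smallest, -0.23 (SE 0.46, unadjusted p = 0.620), in the authors' deposited table. The interval of H3K27me3 at chr19:43699896-43703895 runs from -1.13 to 0.68 and includes both 0 and values like those of most of the other genes. The gene rbm47 encodes an RNA-binding protein that acts in RNA editing and splicing and in mammals is also made in epithelia. At chr1:18707866-18711865 H3K4me3 was 1.41 (SE 0.26) and H3K27me3 was -0.91 (SE 0.45, unadjusted p = 0.0407) in the authors' deposited table.

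The 8 genes took different orders for the 2 marks. From the lowest H3K27me3 value upwards the order was wdfy4, rbm47, fut7, pik3r6a, lcp1, ptprc, lyn and laptm5, and the order by H3K4me3, largest first, was pik3r6a, rbm47, laptm5, lyn, lcp1, fut7, wdfy4 and ptprc. The H3K4me3 order is that of the shrunken values as deposited. With the shrinkage undone, laptm5 (1.89) came before rbm47 (1.88) and fut7 (1.46) before lcp1 (1.35). From pik3r6a to lyn the deposited values were 1.43 to 1.34, with SEs of 0.25 to 0.27. Neighbours in the H3K27me3 order differed by less than their SEs. Between the ends, wdfy4 minus laptm5, the difference was -1.08 on the log2 scale with an SE of 0.68 when the 2 values are treated as independent. Placed among all genes by the H3K27me3 Wald statistic (log2 fold change over SE, lowest first), 7 of the 8 lay between percentile 0.345 (wdfy4) and 6.22 (ptprc), and laptm5 lay at percentile 29.6.

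Further windows of the same gene, with less H3K4me3, give a comparison inside the gene. The genes lcp1, rbm47, wdfy4 and ptprc have 5 further windows between them. For each of the 4 the window of highest H3K4me3 is the one furthest upstream by strand. That upstream window was called for H3K4me3 at lcp1, rbm47 and wdfy4 but not at ptprc (adjusted p of 0.0665 in the authors' deposited table). The further windows had low H3K4me3, with mean counts of 4.56 to 33.5, and H3K4me3 log2 fold changes of -0.35 to 0.13 in the authors' deposited table. None of them had an adjusted p for H3K4me3, and at such counts a gain could have been missed. At lcp1, 34128 bases downstream, H3K27me3 was 0.14 (SE 0.40), against -0.80 at the upstream window, in the authors' deposited table. At rbm47, 36628 bases downstream, it was 0.27 (SE 0.42) against -0.91, and at wdfy4, 60592 bases downstream, -0.18 (SE 0.43) against -1.31, in the authors' deposited table. Mean H3K27me3 counts at these 3 downstream windows were 62.3, 59.2 and 58.5, as high as or near those upstream. The pair of downstream ptprc windows had mean H3K27me3 counts of 9.32 and 8.24 and SEs of 0.95 and 1.28, too few reads to place them. Over all 13 windows 11 had lower H3K27me3, beside 51.1% of all windows. Of the 5 further windows 3 were lower, and these include both downstream ptprc windows, which overlap each other. The 2 windows of a gene share their libraries and their covariance is not in the table, so the differences inside genes were not tested.

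Genes beside the members were looked at after the values above had been seen. Within 50000 bases of a member's window lay windows of 14 other gene IDs, each ID taken at its own window of highest H3K4me3. Apart from si:ch211-223a10.1, none had an H3K4me3 call, and the other 13 had log2 fold changes of -0.29 to 0.40. H3K27me3 was below 0 at 9 of these 13, with a median of -0.33, beside 50.2% below 0 over all genes. That share is not matched for H3K4me3 level, and the mean H3K4me3 counts of the 13 ran from 23.3 to 540. The 13 are not separate promoters, since the windows of tgs1 and tmem68 near lyn and those of clockb and lap3 near rbm47 overlap. The lowest values were those of clockb (-1.06, SE 0.53) and sesn2 near laptm5 (-0.90, SE 0.51) in the authors' deposited table. Neither passed the adjusted p, which no gene passed for H3K27me3. The unadjusted p was 0.0451 at clockb and 0.0800 at sesn2 in the authors' deposited table. So clockb, with -0.25 for H3K4me3, was under the unadjusted 0.05 that 5 of the members passed. The clockb window's partner, lap3, had -0.16 (SE 0.49) in the authors' deposited table.

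**Figure D2:**
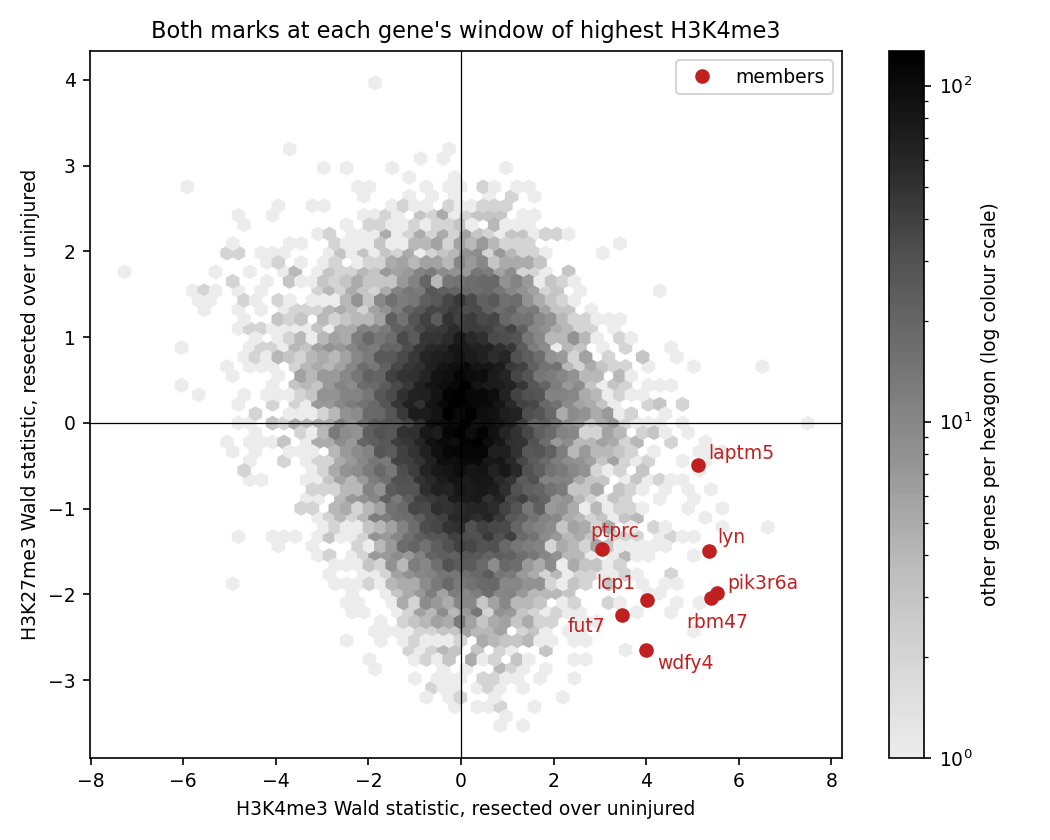
Wald statistics of H3K4me3 (horizontal) and H3K27me3 (vertical), resected over uninjured, for each gene at its window of highest H3K4me3. Grey hexagons count the other genes on a log colour scale, and the 8 members are red and named. The members lie at the lower right, with laptm5 nearest to 0 on the vertical axis.

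The same direction held for other genes that gained H3K4me3, to a smaller degree. Outside the 8, 227 genes were called higher for H3K4me3, and of the 226 with an H3K27me3 value 167 (73.9%) were below 0, with a median log2 fold change of -0.18. Genes called lower for H3K4me3 showed the reverse, with 41 of 214 (19.2%) below 0 and 0.32 as their median. The share rose along the whole range of H3K4me3 change: it was 19.3% for the 88 genes with an H3K4me3 Wald statistic below -4, 52.3% for the 8398 genes between 0 and 1, and 75.0% for the 76 genes above 4. Across 24067 genes outside the members the relation was weak (Pearson's r = -0.14, Spearman's coefficient = -0.11), as a description, since the genes share libraries and depth. Among 2156 other genes within the members' ranges of both mean counts, 52.1% were below 0 for H3K27me3 and the median was -0.02. Whether the libraries of the 2 marks came from the same cell preparations is not stated in the labels.

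**Figure D3:**
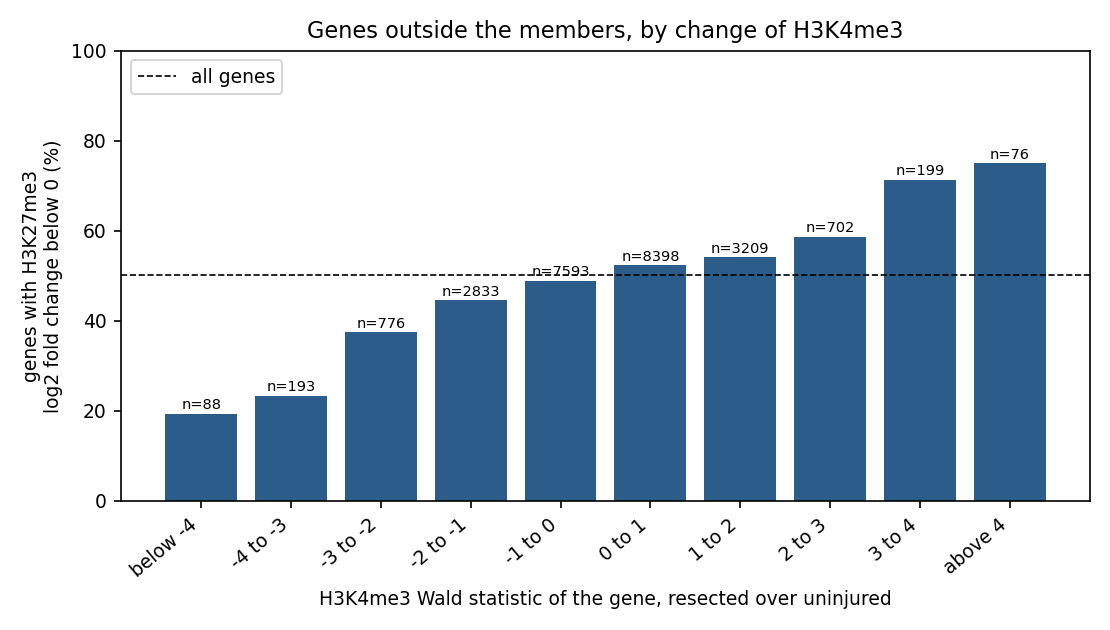
Share of genes with an H3K27me3 log2 fold change below 0 (vertical axis, percent) in bins of the H3K4me3 Wald statistic (horizontal axis, resected over uninjured), without the 8 members. Numbers over the bars are genes per bin, and the dashed line is the share over all genes, 50.2%. The share is lowest, 19.3%, in the bin below -4 and highest, 75.0%, in the bin above 4.

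A wider list of leukocyte genes was set beside the 8. Like the relatives and cell type markers below, it was chosen with earlier results of these data known. It covers kinases and adaptors, PI3K and small GTPase signalling, phosphatases and inhibitory receptors, adhesion, actin and motility, granule, phagocyte and lysosome genes, and antigen presentation and lymphocyte genes. Of its 176 genes measured outside the members, 117 had an adjusted p for H3K4me3. Of these 13 rose and 2 fell, beside 1.52% higher and 1.4% lower over all genes, and 102 did not pass. The median H3K4me3 Wald statistic of the list was 0.86, beside 0.05 over all genes. For H3K27me3, 120 of 176 (68.2%) were below 0, beside 50.2% over all genes, with a median log2 fold change of -0.19, and none passed the adjusted p. The 163 genes of the list that were not called higher for H3K4me3 make up most of it. Of these 163, 109 (66.9%) had H3K27me3 below 0, with a median of -0.18. Of the 13 called higher, 11 (84.6%) did, with a median of -0.38. The 163 are not genes without a gain, since 116 of them had an H3K4me3 log2 fold change above 0, beside 12762 of 24416 over all genes. Their median H3K4me3 Wald statistic was 0.70. Among genes called higher but outside the leukocyte lists, 152 of 209 (72.7%) were below 0, with a median of -0.16.

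In kinase signalling, hck, a Src-family kinase gene of myeloid cells, had 1.35 in the authors' deposited table, with an SE of 0.26 and an adjusted p of 9.47e-05. The kinase gene syk, which acts below immune receptors, and the adaptor gene skap2 rose as well, by 0.94 and 0.88 in the authors' deposited table, and the skap2 window overlaps one of another gene. With pik3r5, the other regulatory subunit of PI3K gamma, at 1.13 in the authors' deposited table, a gene for each kind of regulatory subunit of that enzyme had higher H3K4me3 at its promoter. The pik3r5 window lies at chr6:23460443-23464442, 149414 bases from that of pik3r6a, and its H3K27me3 was -0.58 (SE 0.47) in the authors' deposited table. In the same group rasgrp4, a Ras activator gene, rose (0.96) and rasgrp3 fell (-0.94) in the authors' deposited table. Of the 11 phosphatases and inhibitory receptors 6 had an adjusted p, as did 14 of the 27 antigen presentation and lymphocyte genes, and none of these passed. All 11 of the first class had an H3K4me3 log2 fold change above 0, with a median Wald statistic of 1.05. In the second class 14 of 27 did, with a median of 0.39, beside 12762 of 24416 over all genes.

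Of 19 adhesion genes, itga4, the alpha-4 integrin by which leukocytes hold on to VCAM-1, and the chemokine receptor gene cxcr4b rose, by 1.16 and 0.86 in the authors' deposited table. Of 24 actin and motility genes, the actin regulator genes coro1a (1.04) and fmnl1a (1.12) and gmip (0.90) rose, and CT030188.1 (-0.80), which the gene name table calls lsp1b, fell in the authors' deposited table. Of 39 granule, phagocyte and lysosome genes, the complement genes c1qb (1.13) and c1qc (1.15) and the cathepsin gene ctss2.2 (0.93) rose in the authors' deposited table. Of the 13 that rose, 11 had H3K27me3 below 0, with a median of -0.38. The lowest was itga4, at -1.07 (SE 0.44, unadjusted p = 0.0159), and the highest fmnl1a, at 0.23 (SE 0.37), in the authors' deposited table. Of the 13 only itga4 had an unadjusted p under 0.05 for H3K27me3. Among the 11 below 0, syk (-0.01, SE 0.47), c1qc (-0.05, SE 0.38) and gmip (-0.09, SE 0.59) lay close to 0 in the authors' deposited table. The median of the 8 members, -0.83, was lower than that of these 13, a difference that was not tested.

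**Figure D4:**
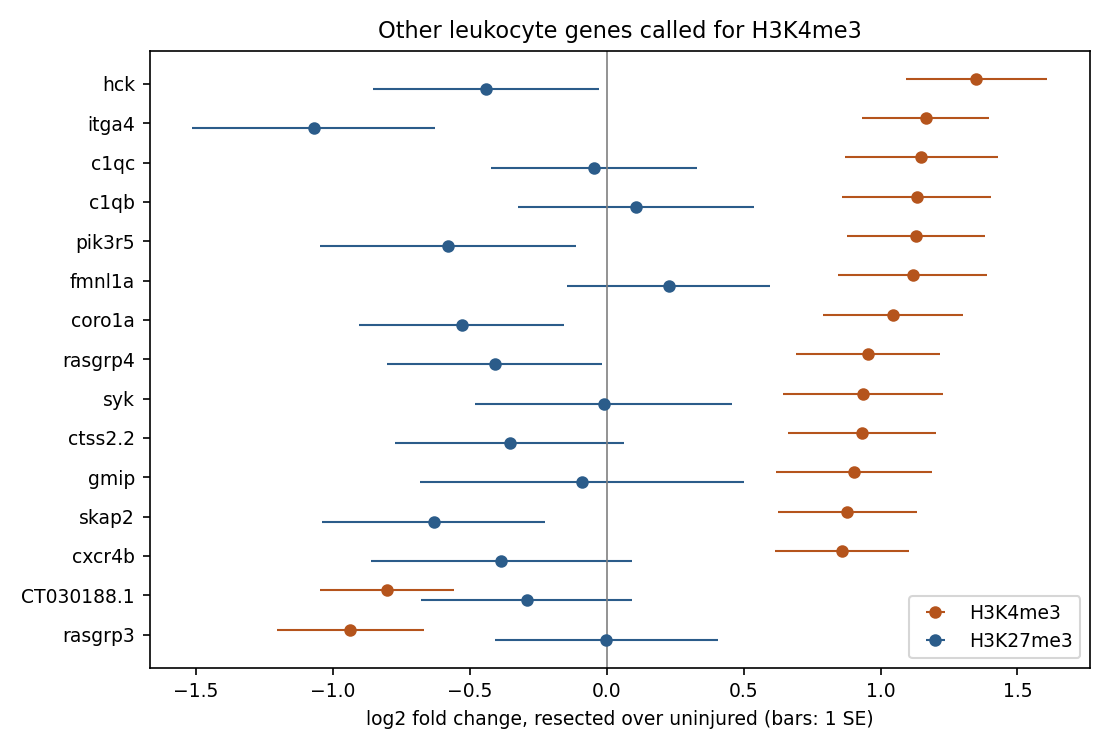
Log2 fold change of H3K4me3 and H3K27me3, resected over uninjured (horizontal axis), at the 15 other leukocyte genes called for H3K4me3, with bars of 1 SE. From hck at the top, the 13 genes that rose for H3K4me3 lie right of 0, and 11 of them have an H3K27me3 point left of 0. The lowest H3K27me3 point is that of itga4, at -1.07.

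Relatives of the members, most of them not restricted to leukocytes, mostly did not pass. Of 56 measured, 39 had an adjusted p for H3K4me3, and of these only hck and pik3r5 rose and none fell, beside 1.52% higher and 1.4% lower over all genes. Both hck and pik3r5 are also in the wider leukocyte list. Among the Src-family genes, src had -0.18, yes1 0.12, fynb 0.17 and yrk 0.25 for H3K4me3 in the authors' deposited table, where lyn had 1.34. The members were chosen on their H3K4me3 values, so nothing is read from how far lyn and the other members differ from their relatives. The T cell kinase gene lck and fyna had 0.07 and 0.10 in the authors' deposited table, with too few reads for an adjusted p. The plastin genes pls3 and pls1 had 0.33 and -0.09, and laptm4a and laptm4b, the relatives of laptm5, had -0.04 and 0.11 in the authors' deposited table. The PI3K subunit genes pik3r1, pik3r2, pik3r3a, pik3r3b and pik3r4 lay between -0.10 and 0.17, and pik3r6b, the paralogue of pik3r6a, had -0.11 with a mean H3K4me3 count of 35.9, in the authors' deposited table. H3K27me3 was below 0 at 33 of the 56 relatives (58.9%), beside 50.2% over all genes, with a median log2 fold change of -0.13. These shares are not matched for H3K4me3 level, whose median mean count was 154 for the relatives and 94.0 over all genes. Of the named relatives pik3r3b alone had an unadjusted p under 0.05 for H3K27me3: its H3K27me3 log2 fold change was -0.95 (SE 0.47, p = 0.0413 unadjusted) and that of H3K4me3 0.08 in the authors' deposited table.

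The cell type markers moved in the same comparison. Of all genes with an adjusted p, 1.52% rose and 1.4% fell for H3K4me3, and 50.2% of all genes had H3K27me3 below 0. Of 15 leukocyte markers 5 rose and none fell for H3K4me3, led by il10ra (1.36), spi1b (1.41) and ikzf1 (1.16) in the authors' deposited table, and 11 of 15 had H3K27me3 below 0. H3K27me3 was -0.26 (SE 0.44) at il10ra, -0.18 (SE 0.45) at spi1b and -0.72 (SE 0.38) at ikzf1 in the authors' deposited table. Of the 15 leukocyte markers 9 are also in the wider list. Of 17 cardiomyocyte markers 11 fell and none rose, led by cmlc1, myl7 and vmhcl (-1.53, -1.52 and -1.50 in the authors' deposited table), and 16 of 17 had H3K27me3 above 0. Of 13 endothelial and endocardial markers nfatc1, kdrl and kdr fell, of 12 erythroid and thrombocyte markers 4 globin genes with windows that overlap in pairs rose, of 5 epicardial markers tbx18, wt1a and wt1b rose, and of 9 fibroblast and mural markers none passed. H3K27me3 was below 0 at 2 of the 13 endothelial and endocardial, 6 of the 12 erythroid and thrombocyte, all 5 epicardial, and 3 of the 9 fibroblast and mural markers. No marker was at 0: mean H3K4me3 counts ran from 40.2 to 656 over the leukocyte markers and from 46.5 to 203 over the cardiomyocyte markers. Enough reads for an adjusted p were present at 11 of 15 leukocyte and 14 of 17 cardiomyocyte markers. The same held for 11 of 13 endothelial and endocardial, all 12 erythroid and thrombocyte, all 5 epicardial, and 6 of 9 fibroblast and mural markers. Background levels and summed levels per condition were not analysed here. In such bulk material more leukocytes in the resected samples and more H3K4me3 per leukocyte cannot be told apart, and the part of the marker shift in the members' values was not tested.

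The genes outside the group whose pattern lay closest to it were gstm.3, lifrb, NPC2 (1 of many), vcanb and arl4cb. Likeness was the Euclidean distance to the members' median over 4 quantities, the log2 mean count and the Wald statistic of each mark, each divided by its SD over genes. The distances were 0.36 to 0.74 among 24067 genes. In the authors' deposited table gstm.3 had an H3K4me3 log2 fold change of 1.13 with -0.86 for H3K27me3, and vcanb, the versican gene, had 1.18 with -0.62.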

How the data were processed

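The values are those of the authors' own test of resected over uninjured hearts, deposited as 1 table for each mark over the same windows, with no values per library. Each window has a signal (normalised read counts averaged by the authors over the libraries of a mark), a log2 fold change with its standard error, a score (the Wald statistic), a p-value and an adjusted p-value, all deposited by the authors and named in the file headers as DESeq2 names them. Tools in the submitters' processing notes are DESeq2, MACS2, bedtools 2.26.0, SAMtools, Picard 2.8.1, Bowtie2 2.3.2 and BWA, and builds are danRer10, GRCz10 and danRer7, without saying which served where. Depth of single libraries, size factors and read filters are not stated, so the mean count stands for depth.

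Replicates are 3 libraries per condition and mark, called biological in the design text. A gene was represented by its window of highest mean H3K4me3 for both marks, with mitochondrial windows left out (24416 genes). The threshold was an adjusted p under 0.05 as deposited, and 95% intervals are normal intervals from the SE. The standard errors of H3K4me3 stop at 0.30, as under a normal prior with an SD of 0.603 (log2), so its fold changes were taken as shrunken and are on another scale than those of H3K27me3. A count test needs values per library and was not run. Members and lists were chosen with earlier results of these data known. Of 354 list entries, 287 were found by symbol in the deposited tables, 16 through the gene name table, and 51 were not found. Named genes are all members, list genes called for H3K4me3 (up to 3 per marker list), the Src, plastin, LAPTM and PI3K relatives, and the 5 nearest genes. Adjustment and the undoing of the prior were tested on simulated data. Python 3.11.15 and pandas 2.3.3 were used.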

Additional observations from a re-analysis of the deposited data

How the results depend on the processing

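All 8 members had lower H3K27me3 at the window of highest H3K27me3, at the window of smallest H3K4me3 p and with a minimum mean H3K27me3 count of 30. These settings could hardly change the count. The window stayed the same for 7 of the 8 under the first and for all 8 under the second, and the lowest mean count was 42.4. Without the overlapping wdfy4 window, 7 members had lower H3K27me3. So did 11 of the 13 windows, among them the downstream ptprc windows, which had too few reads to be placed. The members' median H3K27me3 Wald statistic was -2.02, and -1.74 at the windows of highest H3K27me3 and -1.47 over all windows. The number of members called for H3K27me3 was 0 at the adjusted p and 5 at an unadjusted p under 0.05. H3K4me3 was called at 7 member windows, with or without the filter on low counts, at 6 with an adjusted p under 0.01 or without overlapping windows, and at 8 under 0.1. Since H3K4me3 values chose the genes, these counts are a description only. Undoing the prior on H3K4me3 multiplied the members' log2 fold changes by 1.24 to 1.49, to between 1.13 and 1.90. Without the filter, syk, gmip and CT030188.1 were not called, which left 11 other leukocyte genes higher where 13 had been. The endothelial markers kdrl and kdr were not called without the filter either, with an adjusted p of 0.0647 and 0.0762. Leaving out replicates could not be done, because the tables hold no values per library. No paired analysis was possible because the replicate numbers have no values of their own in the tables. To pass an unadjusted p of 0.05, an H3K27me3 log2 fold change has to reach 0.86 in size at the members' median SE, from 0.76 at their smallest SE to 1.03 at their largest.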
